A study of Mus musculus with 11 samples.

Results

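The genes described here encode inhibitory receptors of T cells, Lag3, Tigit, Pdcd1, Ctla4, Havcr2, Cd96 and Btla, together with Cd226, the activating receptor that competes with Tigit for ligand. They were taken by name as a family of receptors, with earlier results of these data known, and they are 8 of the 52997 genes in the count table. All 8 passed the filter on low counts, which 12932 genes passed in all. The RNA came from regulatory T (Treg) cells of vTreg53 mice, whose T cells carry a transgenic receptor (TCR) taken from 1 Treg clone of visceral adipose tissue (VAT). CD45.2+ Treg cells of the spleen and lymph nodes (Spl/LN) of these mice (strain C57BL/6, genotype vTreg53 Tg+) were pooled and moved into CD45.1 B6 mice. After 6 weeks the recipients were primed with the peptide Fat1562 in complete Freund's adjuvant (CFA) under the skin, and 1 week later they were boosted with it in incomplete adjuvant (IFA) into the peritoneum. Fat1562 is a surrogate antigen of the vTreg53 TCR. Clonotype+ Treg cells were then sorted from Spl/LN or VAT, 1000 cells a library, and the sample titles mark every library as 15wk and M.

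The 4 groups were Spl/LN of unimmunized mice (PBS_unimmunized in the titles, n = 3), Spl/LN of fat1562_immunized mice (n = 3), VAT of unimmunized mice (n = 2) and VAT of fat1562_immunized mice (n = 3). The labels name PBS for the control mice, whereas the methods describe adjuvant without peptide. If the labels hold, what peptide and what adjuvant did cannot be told apart. Below, "unimmunized" and "without immunization" follow the labels and do not settle which of these the control mice received. Clonotype+ cells were those stained by antibodies to the Vα and Vβ segments of that TCR. The values are thus those of cells selected for that TCR in 2 tissues and not of the polyclonal Treg population. Whether every sorted cell carried only that TCR was not tested here. Whether Spl/LN and VAT libraries of the same number came from the same mouse is not given in the sources used here, and p-values measure the spread between these libraries. The methods describe a warm collagenase digestion of VAT and name none for Spl/LN. Where VAT is set against Spl/LN, tissue and cell preparation therefore cannot be told apart.

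Inhibitory receptors are surface proteins that dampen signals from the TCR and from costimulation when they meet their ligands. PD-1 (Pdcd1), CTLA-4 (Ctla4) and BTLA belong to the CD28 family or resemble it, and LAG-3 is related to CD4 and binds MHC class II. TIGIT, CD96 and CD226 form a set that shares ligands of the nectin and nectin-like family, within which CD226 activates and TIGIT inhibits. Treg cells carry CTLA-4 and TIGIT without further stimulation, and activated or repeatedly stimulated T cells gain PD-1, LAG-3 and TIM-3 (Havcr2).

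Total counts per library lay between 4490242 and 6570057, and levels below are normalized counts, which set every library to the mean total of 5359950 after TMM scaling. The Treg and CD4 T cell markers Foxp3, Il2ra, Ikzf2, Cd4, Cd3e and Cd3d were high in all 11 libraries, with a summed level between 24359 and 37247. Summed levels of 7 macrophage, monocyte or dendritic cell markers were at most 114, those of 5 CD8 T or NK cell markers lay between 232 and 538, and those of 3 erythroid markers were at most 32.0. The 6 adipocyte or stromal markers summed to between 249 and 621. Most of that was Pecam1, at 234 to 589, while Adipoq, Plin1, Col1a1, Col3a1 and Pdgfra were each at most 31.2. The 7 B cell markers summed to 6957 in replicate 1 and to 40758 in replicate 2 of unimmunized VAT, against 6597 to 18939 in the other libraries. The excess of replicate 2 lay mostly in the immunoglobulin genes Ighm, Igkc and Jchain. Cd79a was 6.51 in replicate 1 and 23.7 in replicate 2, and Cd79b was 83.5 and 129.7, within its range of 47.2 to 204 over all libraries. Ms4a1 was at most 6.51 in every library. Each comparison that uses unimmunized VAT therefore rests on a pair of libraries of which 1 stands apart, and for the receptors and the genes of the lists its value without replicate 2 is given, or the gene named, where a call after Fat1562 or a receptor's tissue call is lost. Beyond that, the part of these markers in the results was not tested.

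VAT after Fat1562 was compared with VAT of the control mice first. Of the 8 genes, 4 rose and 1 fell in VAT by edgeR's quasi-likelihood test (adjusted p under 0.05 over all 12932 genes). Lag3, Havcr2, Tigit and Pdcd1 rose, Cd226 fell, and Ctla4, Cd96 and Btla did not pass the test. Over all genes the test called 8.3% in VAT, 4.33% higher and 3.97% lower. In Spl/LN, 3 of the 8 rose (Lag3, Tigit and Pdcd1) and none passed the test in the other direction, where 3.98% of all genes were called, 2.58% higher and 1.4% lower. The median log2 fold change of the 8 genes was 0.65 in VAT and 0.24 in Spl/LN, against 0.0079 and -5.5e-06 over all genes tested. These are sorted cells measured in bulk, so a change in the share of cells that express a gene and a change in RNA per cell cannot be told apart. CD8 T and NK cells also express several of these receptors, and the summed level of their markers was 381 to 538 in VAT after Fat1562 against 249 to 281 in unimmunized VAT. Prf1 was 244 to 423 in VAT after Fat1562 against 77.0 and 86.1 without immunization, Cd8b1 was 91.6 to 137 against 171 and 193, and Cd8a and Ncr1 were at 0 in every VAT library after Fat1562. The part of this list in the results was not tested.

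**Figure D1:**
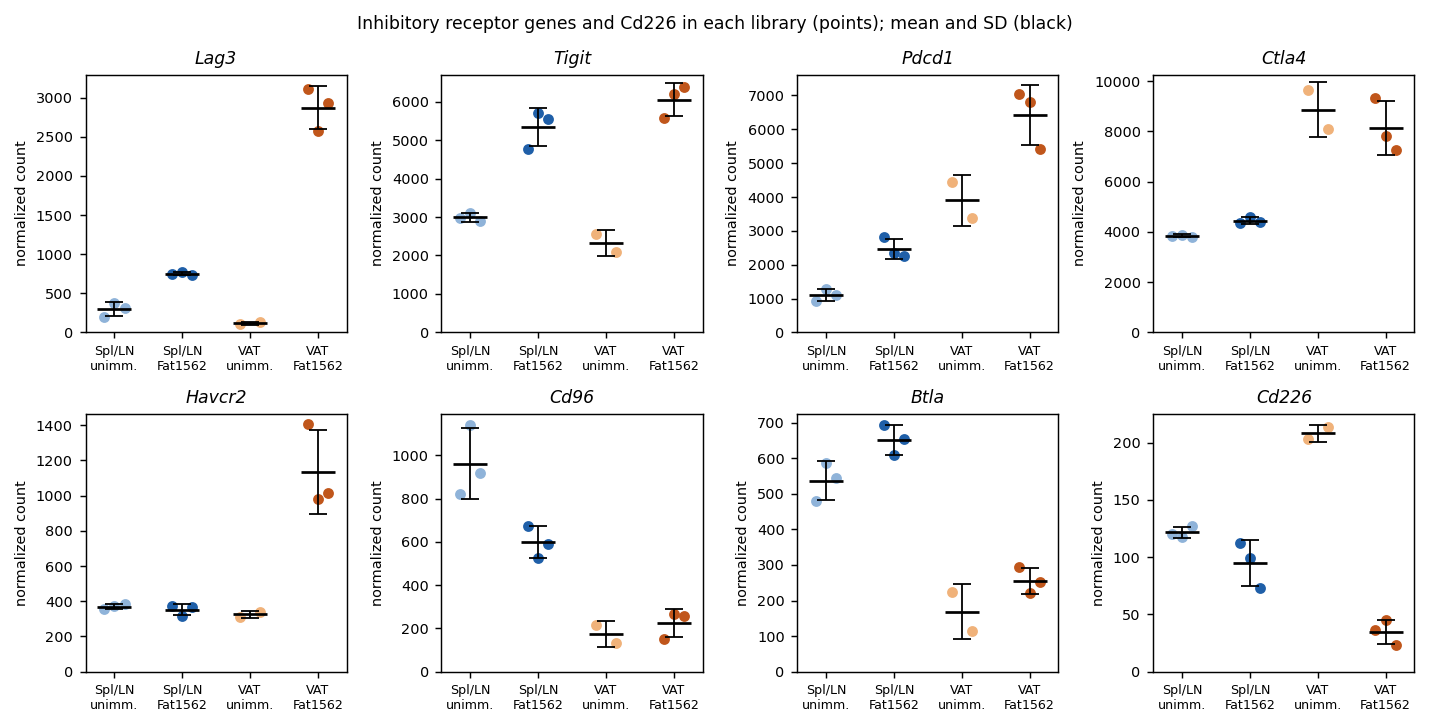
Normalized count (vertical axis, from 0) of each gene in each of the 11 libraries, by group (horizontal axis), with points for libraries, a black line for the group mean and bars for the SD. The Lag3 points of VAT after Fat1562 lie between 2570.4 and 3106, above all other libraries, and the Cd226 points of the same group lie between 23.7 and 44.8, below all other libraries.

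Lag3 (ENSMUSG00000030124.2, chromosome 6, 124904361 to 124911705, minus strand, GRCm38) encodes the MHC class II receptor LAG-3. Its normalized counts were 101 and 132 in unimmunized VAT and 3106, 2570.4 and 2935 in VAT after Fat1562. They were 196, 373 and 315 in unimmunized Spl/LN and 749, 766 and 731 in Spl/LN after Fat1562. In each tissue every Fat1562 library lay above every unimmunized library, and the group that was lowest without immunization, VAT, was the highest after it. In VAT the increase was 24.7-fold (95% interval 17.7 to 34.5), a log2 fold change of 4.63 (SE 0.23, adjusted p = 1.72e-09 from edgeR). Ordered by fold change it stood at place 35 of the 12932 genes tested, and by p at place 2. In Spl/LN Lag3 rose 2.54-fold, a log2 fold change of 1.35 (SE 0.17, adjusted p = 0.000129 from edgeR). The difference between the VAT and the Spl/LN change was 3.28 on the log2 scale (SE 0.27, adjusted p = 5.81e-06 from edgeR). Without replicate 2 of unimmunized VAT the VAT change was 4.83 (adjusted p = 2.29e-07). Between tissues, Lag3 was lower in VAT without immunization (log2 fold change -1.34, SE 0.22, adjusted p = 0.000276 from edgeR). After Fat1562 it was higher in VAT (1.94, SE 0.16, adjusted p = 1.79e-07).

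Havcr2 (ENSMUSG00000020399.14, chromosome 11, 46454935 to 46481255, plus strand) encodes TIM-3, a receptor found on activated T cells and on myeloid cells. Its levels were 312 and 338 in unimmunized VAT and 1409, 978 and 1015 in VAT after Fat1562. In Spl/LN they were 357, 371 and 383 without immunization and 372, 316 and 369.9 after Fat1562. The 3 VAT libraries after Fat1562 thus stood above the other 8, whose levels lay close together. Havcr2 rose 3.49-fold in VAT (log2 fold change 1.80, SE 0.16, adjusted p = 2.16e-06 from edgeR). In Spl/LN the log2 fold change was -0.07 (95% interval -0.36 to 0.23, adjusted p = 0.848) and the groups overlapped. The difference between tissues in the response was 1.87 (SE 0.21, adjusted p = 9.2e-05 from edgeR). The summed level of the macrophage, monocyte and dendritic cell markers was 23.6 to 30.1 in VAT after Fat1562 and 23.7 to 43.4 in unimmunized VAT, and their part in the Havcr2 result was not tested. Without immunization the tissues differed by -0.19 (95% interval -0.52 to 0.15, adjusted p = 0.488), and after Fat1562 the level was 3.21-fold higher in VAT (adjusted p = 1.79e-07 from edgeR).

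**Figure D2:**
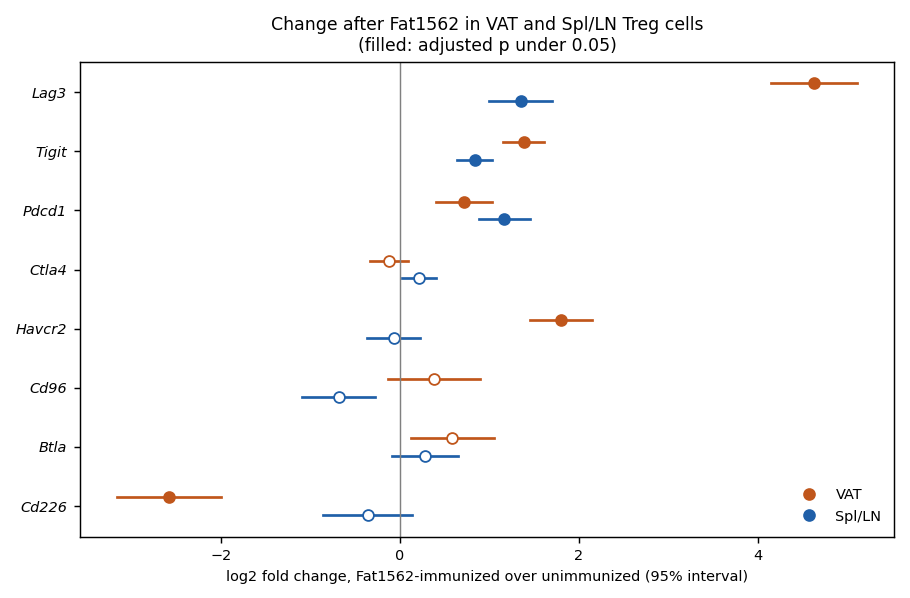
Log2 fold change after Fat1562 (horizontal axis) of the 8 genes in VAT (orange) and Spl/LN (blue), with 95% intervals from the edgeR fit and filled points for adjusted p under 0.05. Lag3 (4.63 and 1.35), Havcr2 (1.80 and -0.07) and Cd226 (-2.58 and -0.36) have intervals that do not overlap between the tissues, as do Tigit (1.38 and 0.84) and Cd96 (0.38 and -0.68), while those of Pdcd1, Ctla4 and Btla overlap.

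Pdcd1 (ENSMUSG00000026285.7, chromosome 1, 94038305 to 94052553, minus strand) encodes PD-1, which recruits phosphatases that act on TCR and CD28 signaling. Its levels were 932, 1286 and 1090.2 in unimmunized Spl/LN and 2812, 2351 and 2259 after Fat1562. In VAT they were 4433 and 3376 without immunization and 7049.6, 6802 and 5427 after Fat1562. No libraries overlapped between the 4 groups, and the order was unimmunized Spl/LN, Fat1562 Spl/LN, unimmunized VAT and Fat1562 VAT. Pdcd1 rose 2.24-fold in Spl/LN (log2 fold change 1.17, SE 0.13, adjusted p = 7.21e-05 from edgeR) and 1.65-fold in VAT (0.72, SE 0.15, adjusted p = 0.00521). The VAT call was lost without replicate 2 of unimmunized VAT, where the log2 fold change was 0.54 (adjusted p = 0.117). The tissue responses differed by -0.45 (95% interval -0.86 to -0.03), which did not pass the adjustment (adjusted p = 0.252 from edgeR). Pdcd1 was higher in VAT than in Spl/LN without immunization (3.54-fold, adjusted p = 8.18e-08) and after Fat1562 (2.60-fold, adjusted p = 1.01e-06).

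Ctla4 (ENSMUSG00000026011.13, chromosome 1, 60887000 to 60915832, plus strand) encodes CTLA-4, which takes CD80 and CD86 away from CD28. Its levels were 3854, 3896 and 3788 in unimmunized Spl/LN and 4340.2, 4605 and 4392 in Spl/LN after Fat1562. In VAT they were 9637 and 8086 without immunization and 9349, 7831 and 7254 after Fat1562. Every VAT library lay above every Spl/LN library, and the groups overlapped in VAT and not in Spl/LN. The log2 fold change after Fat1562 was -0.12 in VAT (95% interval -0.33 to 0.09, adjusted p = 0.545 from edgeR) and 0.21 in Spl/LN (95% interval 0.02 to 0.40, adjusted p = 0.222). Ctla4 was 2.30-fold higher in VAT without immunization (log2 fold change 1.20, SE 0.10, adjusted p = 1.07e-07 from edgeR). After Fat1562 it was 1.83-fold higher there (0.87, SE 0.09, adjusted p = 2.4e-06).

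Btla (ENSMUSG00000052013.15, chromosome 16, 45224315 to 45257670, plus strand) encodes a receptor for HVEM, the product of Tnfrsf14. Its levels were 479, 587 and 544 in unimmunized Spl/LN and 694, 609 and 652 after Fat1562, and in VAT they were 224 and 114 without immunization and 293, 221 and 252 after it. The VAT libraries all lay below the Spl/LN libraries, and the unimmunized VAT pair was the most scattered group for any of the genes, at 169 ± 78.5 (SD, n = 2), a coefficient of variation of 46.4%. B cells also express Btla. The B cell marker sum was 6957 in replicate 1, where Btla was 224, and 40758 in replicate 2, where it was 114, and the part of those markers in the Btla result was not tested. Btla was 3.15-fold lower in VAT without immunization (log2 fold change -1.66, SE 0.22, adjusted p = 3.29e-05 from edgeR) and 2.56-fold lower after Fat1562 (-1.35, SE 0.18, adjusted p = 4.79e-05). The difference without immunization was -1.26 without replicate 2 and -2.25 without replicate 1 of unimmunized VAT. After Fat1562 the log2 fold change was 0.58 in VAT (95% interval 0.12 to 1.04, adjusted p = 0.119) and 0.28 in Spl/LN (adjusted p = 0.43). The VAT value became 1.17 (adjusted p = 0.00637) without replicate 1 of unimmunized VAT and 0.19 (adjusted p = 0.727) without replicate 2, so the VAT response of Btla turns on which of these libraries is used.

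Promoters are shown because Tigit, Pdcd1 and Havcr2 rose after Fat1562 in VAT while Ctla4 did not pass the test. NFAT and AP-1 are transcription factors switched on by the TCR. The sequences are the 250 bases before the RefSeq start (GRCm38.p6), written along the gene's strand. Capitals mark the NFAT core, GGAAA or TTTCC on the other strand, and the AP-1 motif TGANTCA, searched on both strands. RefSeq promoters were taken for 6 of the 8 genes. Lag3 had no entry, and Cd226, the gene that fell in VAT, was left out of the search.
Tigit, chr16:43664185-43664434, minus strand: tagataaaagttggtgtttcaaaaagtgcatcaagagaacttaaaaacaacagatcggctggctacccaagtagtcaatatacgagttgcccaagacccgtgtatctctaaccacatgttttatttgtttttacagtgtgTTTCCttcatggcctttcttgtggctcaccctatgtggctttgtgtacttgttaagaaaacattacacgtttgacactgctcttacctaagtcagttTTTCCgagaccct
Pdcd1, chr1:94052554-94052803, minus strand: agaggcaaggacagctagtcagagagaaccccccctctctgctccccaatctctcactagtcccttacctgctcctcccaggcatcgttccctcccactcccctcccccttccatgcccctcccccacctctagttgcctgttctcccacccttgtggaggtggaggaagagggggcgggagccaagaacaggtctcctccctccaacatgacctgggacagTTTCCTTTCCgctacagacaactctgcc
Havcr2, chr11:46454681-46454930, plus strand: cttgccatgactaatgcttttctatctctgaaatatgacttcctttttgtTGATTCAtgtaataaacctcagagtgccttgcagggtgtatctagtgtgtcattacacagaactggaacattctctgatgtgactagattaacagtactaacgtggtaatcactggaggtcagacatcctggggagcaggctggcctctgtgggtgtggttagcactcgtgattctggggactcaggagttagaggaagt
Ctla4, chr1:60908775-60909024, plus strand: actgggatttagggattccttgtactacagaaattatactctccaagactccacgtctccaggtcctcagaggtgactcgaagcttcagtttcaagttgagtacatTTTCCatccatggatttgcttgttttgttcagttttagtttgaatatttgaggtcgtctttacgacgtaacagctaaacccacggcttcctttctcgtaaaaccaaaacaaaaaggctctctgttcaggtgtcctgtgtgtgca
The Tigit window holds 2 NFAT cores and the Pdcd1 window 2, which lie next to each other close to the start. The Ctla4 window holds 1, at -144 from the start. Havcr2 has no NFAT core in this window and 1 AP-1 motif, at -200. An NFAT core was found in 55.6% and an AP-1 motif in 6.75% of 32851 promoter windows of the same length, so an NFAT core is common to most promoters. Among the genes that did not pass the test in VAT, the Cd96 window, not printed here, holds 4 NFAT cores and that of Btla neither motif, so that the windows of genes that rose and of genes that did not pass each include some with and some without an NFAT core.

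Tigit (ENSMUSG00000071552.5, chromosome 16, 43648867 to 43664146, minus strand) encodes an inhibitory receptor for PVR (CD155). Its levels were 2972, 3116 and 2885 in unimmunized Spl/LN and 4770.2, 5706 and 5541 in Spl/LN after Fat1562. In VAT they were 2569.8 and 2085 without immunization and 5579.7, 6200.1 and 6393 after Fat1562. In each tissue the Fat1562 libraries stood clear of the unimmunized ones, and after Fat1562 the tissues overlapped. Tigit rose 2.60-fold in VAT (log2 fold change 1.38, SE 0.11, adjusted p = 5.75e-07 from edgeR) and 1.78-fold in Spl/LN (0.84, SE 0.09, adjusted p = 5.01e-05). Without immunization it was 1.28-fold lower in VAT (log2 fold change -0.36, adjusted p = 0.0252). That call was lost without replicate 2 of unimmunized VAT (-0.22, adjusted p = 0.295) and without replicate 2 of unimmunized Spl/LN (adjusted p = 0.0745), and the difference was -0.52 without replicate 1 of unimmunized VAT. After Fat1562 the tissue difference was 0.18 (95% interval -0.01 to 0.38, adjusted p = 0.213). Of the 38-base stretches of the Tigit transcript, 7.94% also occur in other annotated genes, against at most 1.11% for the other receptors, and how reads in such stretches were counted is not given in the sources used here.

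Cd96 (ENSMUSG00000022657.9, chromosome 16, 46035657 to 46120251, minus strand) encodes a receptor that shares ligands with TIGIT and CD226. Its levels were 819.9, 1141 and 920.4 in unimmunized Spl/LN and 674, 527 and 592 after Fat1562. In VAT they were 215 and 131 without immunization and 151, 269 and 258 after Fat1562. All VAT libraries lay below all Spl/LN libraries, and the VAT groups overlapped. Cd96 was 5.52-fold lower in VAT without immunization (log2 fold change -2.47, SE 0.25, adjusted p = 1.4e-06 from edgeR), the largest tissue difference among the 8 genes in unimmunized mice. After Fat1562 it was 2.64-fold lower there (-1.40, SE 0.20, adjusted p = 0.000116). The log2 fold change after Fat1562 was -0.68 in Spl/LN (95% interval -1.09 to -0.27) and missed the threshold (adjusted p = 0.0585 from edgeR), although the groups did not overlap. It passed in 8 of 18 alternative fits, among them that by DESeq2 (adjusted p = 0.0145) and those without replicate 1 of unimmunized Spl/LN (-0.78), without replicate 1 or 2 of unimmunized VAT (-0.69 in each) or without replicate 1 of Fat1562 VAT (-0.69). In VAT the value was 0.38 (95% interval -0.13 to 0.90, adjusted p = 0.409).

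Cd226 (ENSMUSG00000034028.16, chromosome 18, 89176967 to 89272229, plus strand) encodes DNAM-1, the activating partner of the set. It was counted thinly, with 26 to 187 reads per library. Its levels were 121, 118 and 127 in unimmunized Spl/LN and 113, 99.4 and 72.9 after Fat1562. In VAT they were 203 and 213 without immunization and 36.0, 44.8 and 23.7 after Fat1562. The VAT groups were the highest and the lowest of the 4, with the Spl/LN groups between them. Cd226 fell 5.99-fold in VAT (log2 fold change -2.58, SE 0.28, adjusted p = 1.14e-05 from edgeR), at place 110 from the lowest of the 12932 genes. In Spl/LN the log2 fold change was -0.36 (95% interval -0.86 to 0.14, adjusted p = 0.452), and the responses differed by -2.22 (SE 0.36, adjusted p = 0.00204 from edgeR). Counting error alone was 17.1% of a library's value in VAT after Fat1562, and the interval of the VAT fall ran from -3.16 to -2.00. Cd226 was 2.73-fold lower in VAT than in Spl/LN after Fat1562 (adjusted p = 0.000845). The difference without immunization, 0.77 higher in VAT (SE 0.26), stood at an adjusted p of 0.0492. It was lost in 11 of 18 alternative fits, which include each of those that left out an unimmunized library (adjusted p = 0.0553 to 0.208), replicate 1 or 2 of Fat1562 Spl/LN (0.0549 and 0.0642) or replicate 1 of Fat1562 VAT (0.0577).

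The balance of Tigit over Cd226 followed from both. Per kilobase of exon, Tigit exceeded Cd226 by 121 to 141 times in the unimmunized Spl/LN libraries and by 226, 306 and 405 times in those after Fat1562. In unimmunized VAT the ratio was 67.5 and 52.0, and after Fat1562 it was 826, 737 and 1436. The ratio in VAT thus passed from the lowest of the 4 groups, 59.7 ± 10.9 (SD, n = 2), to the highest, 999 ± 380 (SD, n = 3). Cd96 over Cd226 was 1.87 ± 0.704 (SD, n = 2) in unimmunized VAT, and after Fat1562 it was 15.7 ± 7.76 (SD, n = 3), with libraries at 9.38, 13.4 and 24.4. The Spl/LN groups stood at 17.7 ± 3.48 and 14.5 ± 3.29 (SD, n = 3 each), with libraries from 11.9 to 21.7. Of its parts, Cd226 fell in VAT and Cd96 did not pass the test there. Ctla4 exceeded Cd28, which encodes the costimulatory receptor of the same ligands, by 17.0 ± 0.981 times (SD, n = 2) in unimmunized VAT and by 8.84 ± 0.730 times (SD, n = 3) after Fat1562. The Spl/LN ratios were 6.97 ± 0.805 and 6.11 ± 0.397 (SD, n = 3 each). Cd28 rose in VAT (log2 fold change 0.81, SE 0.13, adjusted p = 0.000477 from edgeR), while the log2 fold change of Ctla4 was -0.12 and did not pass the test. These ratios are given as a description, without a test.

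**Figure D3:**
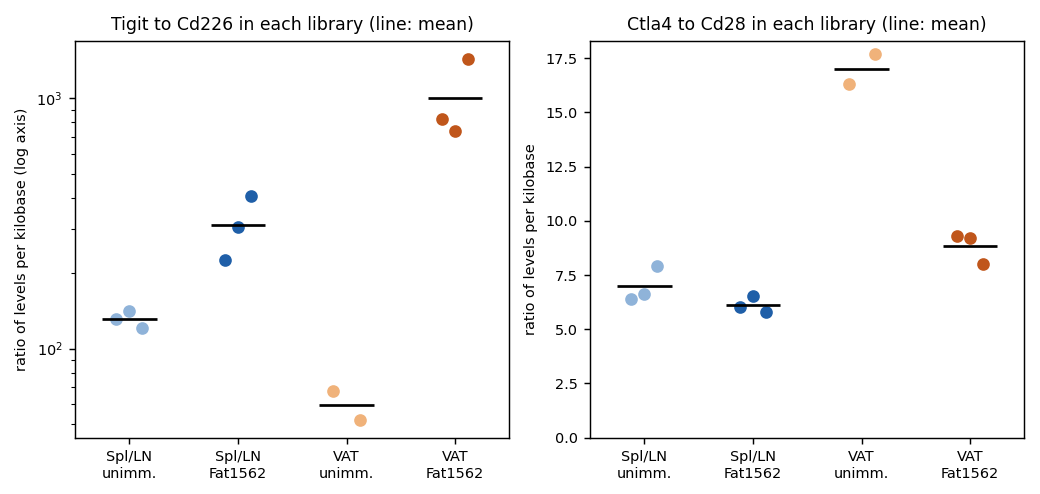
Ratio of levels per kilobase in each library (points) by group, with a line for the group mean, for Tigit over Cd226 (left, log axis) and Ctla4 over Cd28 (right, axis from 0). In VAT the first ratio stands at 52.0 and 67.5 without immunization and at 737 to 1436 after Fat1562, and the second at 16.3 to 17.7 and at 7.996 to 9.30.

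Set side by side, the tissue comparisons involved most of the 8 genes. Without immunization 7 of the 8 differed between VAT and Spl/LN, 3 higher in VAT (Pdcd1, Ctla4 and Cd226) and 4 lower (Lag3, Tigit, Cd96 and Btla). Over all genes the test called 16.3%, 9.09% higher and 7.18% lower. After Fat1562, 7 of the 8 differed as well, with Lag3, Havcr2, Pdcd1 and Ctla4 higher in VAT and Cd96, Btla and Cd226 lower, where 15% of all genes were called, 8.26% higher and 6.73% lower. Pdcd1 and Ctla4 were higher, and Cd96 and Btla lower, in VAT in mice of either kind. Lag3 and Cd226 were called in opposite directions in the 2 comparisons. The response to Fat1562 differed between the tissues for 4 of the 8 genes by the interaction test of edgeR, positively for Lag3, Havcr2 and Tigit and negatively for Cd226. That test called 3.72% of all genes, 1.7% with a positive and 2.02% with a negative difference. The Tigit difference was the smallest, 0.54 (SE 0.14, adjusted p = 0.0385), and was lost when any of 7 libraries was left out (adjusted p from 0.0576 to 0.197). These were replicates 1 and 2 of unimmunized Spl/LN, replicates 1 and 3 of Fat1562 Spl/LN, replicate 2 of unimmunized VAT, and replicates 2 and 3 of Fat1562 VAT. For Cd96 the difference was 1.07 (95% interval 0.41 to 1.73, adjusted p = 0.0693), and it passed in 5 of 17 alternative fits, among them those without replicate 1 of unimmunized VAT (1.48) or without replicate 1 of Fat1562 VAT (1.28). For Ctla4 it was -0.33 (adjusted p = 0.204) and for Btla 0.30 (adjusted p = 0.66).

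Levels of different genes were compared only per kilobase of exon in the GENCODE vM21 gene models. In unimmunized Spl/LN the order was Tigit at 3255 ± 127 (SD, n = 3) normalized counts per kilobase, Ctla4 at 1651 ± 23.2, Pdcd1 at 571 ± 92.0, Cd96 at 439.7 ± 75.1, Btla, Lag3 and Havcr2 between 136 and 158, and Cd226 at 24.9 ± 0.964. The libraries of Pdcd1 and Cd96 overlapped, as did those of Btla and Lag3 and of Lag3 and Havcr2. After Fat1562 in Spl/LN, Lag3 moved up, to directly below Pdcd1, at 355 ± 8.37 (SD, n = 3), and no neighbours overlapped. Unimmunized VAT was headed by Ctla4 at 3803 ± 471 (SD, n = 2), followed by Tigit at 2533 ± 373 and Pdcd1 at 2023 ± 387, which overlapped each other. Havcr2 came next at 119 ± 6.69, and Cd96, Lag3, Btla and Cd226 followed between 42.5 and 79.1, each overlapping the next. After Fat1562 in VAT, Tigit led at 6591 ± 462 (SD, n = 3), with Ctla4 at 3496 ± 464 and Pdcd1 at 3329.7 ± 453 overlapping behind it. Below them stood Lag3 at 1361 ± 129.8 and Havcr2 at 417 ± 87.8, above Cd96 at 103 ± 29.9, Btla at 75.2 ± 10.7 and Cd226 at 7.12 ± 2.16. The gene model of Tigit is the shortest of the 8, 919 bases. In counts not divided by length Tigit stood above Ctla4 in Spl/LN after Fat1562 (5339 against 4446), but below it in the other 3 groups and below Pdcd1 in both VAT groups, so those places depend on the gene models. The model of Cd226 is the longest of the 8, 4891 bases. In unimmunized VAT its undivided level, 208, stood above those of Cd96 (173), Btla (169) and Lag3 (117). Its last place there, and the order of Lag3 and Btla, therefore depend on the models too. Undivided, Btla also stood above Cd96 after Fat1562 in Spl/LN (652 against 598) and in VAT (255 against 226). Havcr2 stood above Lag3 in unimmunized Spl/LN (370 against 295), so the order of these pairs depends on the models as well.

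**Figure D4:**
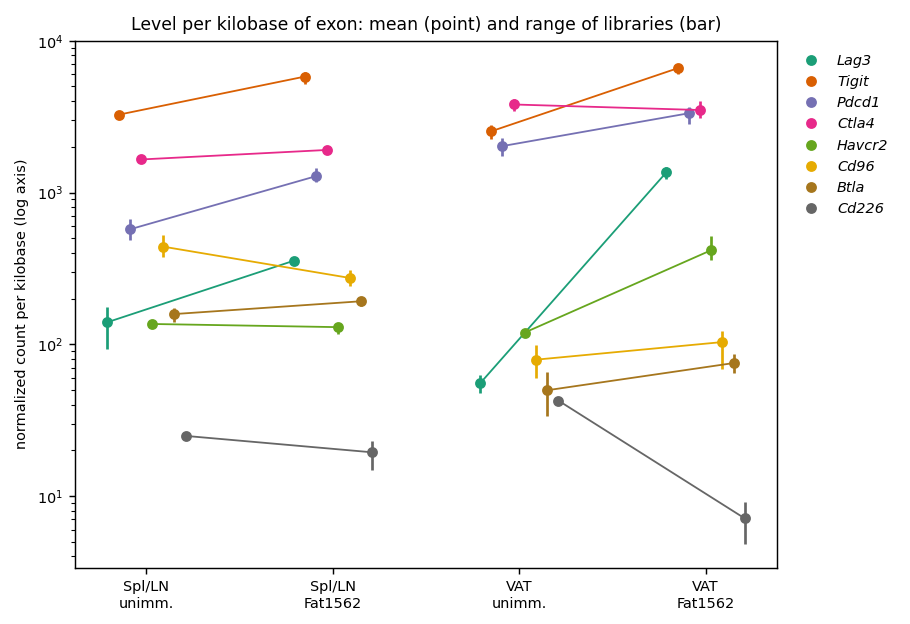
Level per kilobase of exon (log axis) of the 8 genes in the 4 groups, with the mean as a point, the range of libraries as a bar, and lines joining the groups of a tissue. Lag3 goes from 55.3 to 1361 in VAT and from 139.7 to 355 in Spl/LN, and by the mean per kilobase Cd226 is the lowest of the 8 in all 4 groups.

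Genes of the same pathway were read from 5 lists, whose counts stand against 8.3% of all genes called in VAT and 3.98% in Spl/LN. Of 13 other inhibitory receptors, 11 could be tested. In VAT Cd101 (log2 fold change 0.81) and Vsir, which encodes VISTA (0.57), rose after Fat1562, and Cd200r1 (-1.21), Lilrb4a (-0.77), Cd6 (-0.52) and Klrg1 (-0.42) fell. In Spl/LN Lilrb4a (1.33) and Klrg1 (0.64) rose and Cd101 fell (-0.72), so that Lilrb4a, Klrg1 and Cd101 were called in opposite directions in the tissues, and each of these differences passed the interaction test (adjusted p = 7.52e-05, 0.00052 and 0.00243 from edgeR). Lilrb4a had a level of 1895 ± 326 (SD, n = 2) in unimmunized VAT and 1112 ± 115 (SD, n = 3) after Fat1562, against 183 ± 43.1 and 460.5 ± 66.5 (SD, n = 3 each) in Spl/LN. Of the VAT calls, those of Klrg1, Vsir, Lilrb4a and Cd101 were lost without replicate 2 of unimmunized VAT (adjusted p = 0.102, 0.213, 0.144 and 0.133), and those of Klrg1 and Cd101 also without replicate 1. In Spl/LN the Cd101 call was lost without replicate 3 of unimmunized or replicate 2 or 3 of Fat1562 Spl/LN, and the interaction calls of Lilrb4a, Klrg1 and Cd101 held in all 11 fits that left out a library. Klrg1 in VAT was lost, too, without replicate 2 or 3 of VAT after Fat1562, and Vsir without replicate 2 of that group. The median log2 fold change of this list was 0.05 in VAT and 0.01 in Spl/LN, near those of all genes.

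Of 12 genes for ligands of the receptors, 11 could be tested in the RNA of the sorted cells. Nectin1 and Nectin2 were low, with group means of at most 16.0 and 14.3. In VAT none rose after Fat1562, and Lgals3 (-0.76), Cd274, which encodes PD-L1 (-0.63), and Lgals9 (-0.47) fell, with a median over the list of -0.09. Cd274 stood at 579 ± 38.4 (SD, n = 2) in unimmunized VAT against 375 ± 58.7 (SD, n = 3) after Fat1562. For Lgals9, a reported ligand of TIM-3, the levels were 2342 ± 166 (SD, n = 2) and 1688 ± 100.4 (SD, n = 3). In Spl/LN Lgals3 rose (1.09) and no other ligand passed the test. Among activating counterparts, 4 of 5 tested, Cd28 (0.81) and Icos (0.34) rose in VAT and Cd4 (0.50) rose in Spl/LN. In VAT the Cd274 and Icos calls were lost without either library of unimmunized VAT, and those of Lgals3 and Lgals9 without replicate 1 (adjusted p = 0.204 and 0.103). Leaving out libraries of other groups ended the call of Icos in 6 more fits, of Cd274 in 3 and of Lgals3 in 2. The calls of Cd28 in VAT and of Lgals3 and Cd4 in Spl/LN held in all 11 fits. The medians of the 4 were 0.29 in VAT and 0.17 in Spl/LN.

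Of 13 cytoplasmic partners and genes of receptor trafficking and shedding, 5 rose and 1 fell in VAT, and 3 rose and 1 fell in Spl/LN. Over all genes, 8.3% were called in VAT and 3.98% in Spl/LN. Ptpn6, which encodes the phosphatase SHP-1, rose by 0.99 (SE 0.13) in VAT and 0.98 (SE 0.11) in Spl/LN, and the difference was 0.01 (SE 0.17, adjusted p = 0.987). Prkch (1.57 and 0.64) and Lrba (1.16 and 0.44) rose in both tissues as well. LRBA keeps CTLA-4 from degradation, and Prkch encodes a kinase that binds its tail. Lrba differed between the tissues in its response (0.71, adjusted p = 0.0314). Adam17, a protease that sheds LAG-3, rose in VAT (0.67, adjusted p = 0.00122), as did the kinase gene Lck (0.46). Adam10, the other protease gene of the list, passed the edgeR test in neither tissue. Its log2 fold change was -0.15 in VAT (adjusted p = 0.616 from edgeR) and 0.18 in Spl/LN (adjusted p = 0.47). Trat1, whose product helps CTLA-4 to the surface, fell in VAT (-0.97) and in Spl/LN (-0.93). In VAT the calls of Ptpn6, Prkch, Lrba and Adam17 held in all 11 fits, that of Lck was lost without replicate 2 of unimmunized VAT (adjusted p = 0.104), and that of Trat1 was lost in 7, both libraries of unimmunized VAT among them. In Spl/LN the calls of Prkch, Trat1 and Lrba were lost in 5, 3 and 8 of the 11 fits, as was the Lrba interaction in 7, and that of Ptpn6 held in all. The list's median was 0.04 in VAT and 0.28 in Spl/LN.

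Of 17 transcription factors tied to these receptors, 16 were tested. In VAT Tbx21, the T-bet gene (2.75, SE 0.38), and Batf (0.82) rose, and Tox2 (-1.19), Nr4a3 (-1.12) and Nr4a1 (-1.04) fell. In Spl/LN Tbx21 (1.84), Nfatc1 (0.73), Batf (0.38) and Maf (0.36) rose and none passed the test as lower. Nr4a1 and Nr4a3, which are switched on by TCR signaling, were thus lower in VAT after Fat1562 where Lag3, Havcr2, Tigit and Pdcd1 were higher. Nr4a1 still stood at 9951 ± 1395 (SD, n = 3) there, against 20408 ± 3470.5 (SD, n = 2) in unimmunized VAT and 1272 ± 208 (SD, n = 3) in Spl/LN after Fat1562. The part of the collagenase digestion of VAT in these levels was not tested. The VAT calls held in all 11 fits, in which the Tbx21 change was 3.95 without replicate 1 and 2.13 without replicate 2 of unimmunized VAT. In Spl/LN those of Tbx21 and Nfatc1 held, while those of Batf and Maf were lost in 8 and 9 of the 11 fits. The medians of the list were -0.23 in VAT and 0.32 in Spl/LN.

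**Figure D5:**
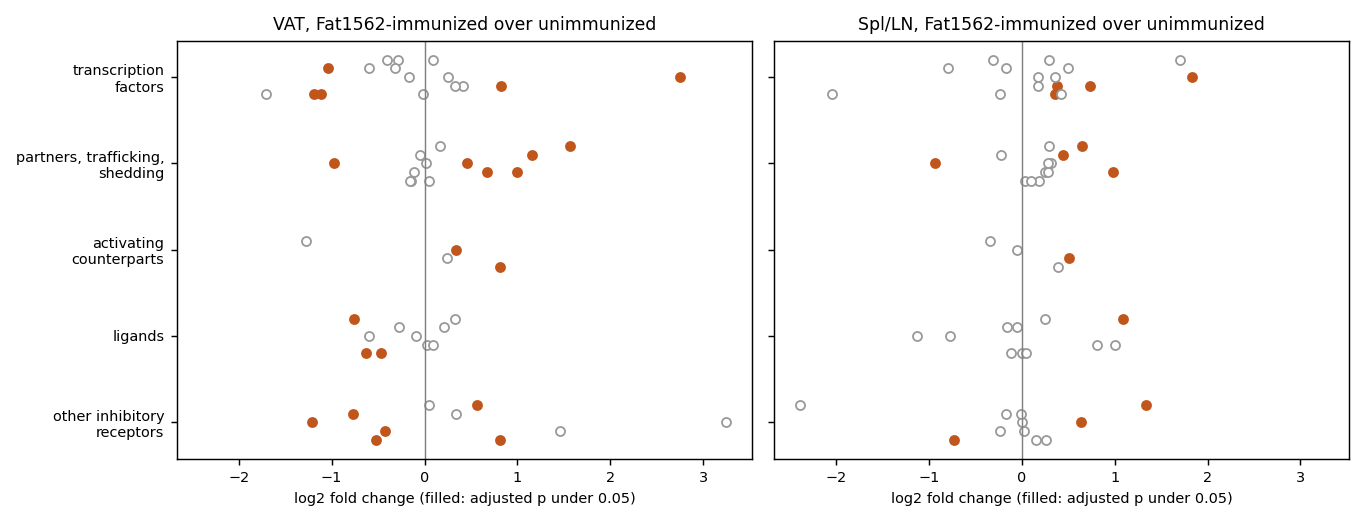
Log2 fold change after Fat1562 (horizontal axis) of the tested genes of the 5 lists in VAT (left) and Spl/LN (right), 1 point a gene, filled where adjusted p was under 0.05, without genes at 0 in a group compared. In VAT the transcription factor point farthest to the right is Tbx21 (2.75), and 3 ligands are filled to the left of 0.

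The genes whose pattern was most like each receptor were read by Pearson's r of log2(normalized count + 1) over the 11 libraries, which share the 4 groups, so r is a description of group levels. For Lag3 they were Mrps6 (0.972), Fbxw11 (0.967) and Tbc1d30 (0.955), and for Tigit they were Cst7 (0.984), Sept7 (0.974) and Dap (0.970). Pdcd1 was most like Itga3, Sh2d2a and Runx2 (0.985 to 0.987). The nearest to Ctla4 were Rab11fip1 (0.994), Id2 and Serpinb6a. Havcr2 ran closest to Itgb8 (0.984), Cox5b and Ndc1. Cd96 ran closest to Slamf6 (0.965), and Btla to Cxcr5 (0.972), the chemokine receptor gene of B cell follicles. Cd226 had lower values of r, with Cd40lg (0.931), Ptpn13 (0.910) and Fam117a (0.909). No receptor was among the 3 nearest genes of another.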

How the data were processed

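Smart-seq2 RNA-seq was done on 11 libraries of sorted Treg cells with paired reads of 38 bases and no molecular identifiers. The authors deposited whole-number counts per gene, without normalization. The submitters' processing notes name STAR 2.5.4, featureCounts and the build mm10, while the paper's methods name Cuffquant. The annotation and the use of strand are not given in the sources used here. Groups were taken from the sample titles. Total counts were 4490242 to 6570057. Intervals and SEs take in counting error and library spread, but no loss of molecules that all libraries share.

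A gene was kept if, with libraries scaled to their mean total, any group averaged over 10. The test was the quasi-likelihood test of edgeR 4.0.16 under R 4.3.3 after TMM normalization (prior count 0.125), in 1 fit of 4 groups and with Benjamini-Hochberg adjustment over all genes tested. The common biological coefficient of variation was 19.1%. Within groups, squared differences between library pairs were 5.62 to 11.9 times those expected from counting error (chi-square over degrees of freedom). No library was thus a second count of another's reads, but whether libraries came from separate mice cannot be told from these values. The named genes are the 8 receptors, the members of the 5 lists (called genes with the largest change first) and the 3 genes most like each receptor. Receptors and lists were chosen with earlier results of these data known. Gene models came from GENCODE vM21 and promoters from RefSeq (GRCm38.p6). Alternatives were median-of-ratios size factors, limma 3.58.1 on quantile-normalized values, no filter or a mean above 50, DESeq2 1.42.0, only the groups compared, the replicate number as a block, and fits that left out 1 library each (for genes of the lists, chosen after seeing the data). The steps were tested on simulated data.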

Additional observations from a re-analysis of the deposited data

Results flagged for a closer look

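For 4 of the 8 genes the change after Fat1562 differed between VAT and Spl/LN by the interaction test of edgeR over all genes. Of all genes tested, 3.72% were called, 1.7% with a positive and 2.02% with a negative difference. Lag3 rose by 3.28 more on the log2 scale in VAT than in Spl/LN (adjusted p = 5.81e-06), and all 3 VAT libraries after Fat1562 lay above the other 8 libraries. For Havcr2 the difference was 1.87 (adjusted p = 9.2e-05), with a call in VAT and a Spl/LN value of -0.07. For Cd226 the difference was -2.22 (adjusted p = 0.00204), and all 3 VAT libraries after Fat1562 lay below the other 8. For Tigit it was 0.54 (adjusted p = 0.0385), which passed in 9 of 17 alternative fits.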

How the results depend on the processing

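Of 712 values of single receptors under the alternatives, 670 kept their direction and their side of the threshold, 24 lost the call, 15 gained it and 3 turned in direction. The calls of Lag3, Havcr2, Tigit and Cd226 in VAT and of Lag3, Tigit and Pdcd1 in Spl/LN after Fat1562 held in all 18 alternatives, and Pdcd1 in VAT held in 17. The 3 that turned were uncalled values, with libraries left out in turn: Ctla4 in VAT after Fat1562 (-0.241 to 0.0119), Havcr2 in Spl/LN after Fat1562 (-0.108 to 0.00225) and the Btla interaction (-0.0915 to 0.892). The Btla interaction was 0.303 in the main fit and turned without replicate 2 of unimmunized VAT. With each library left out, the number of all genes called ran from 508 to 1394 for Fat1562 in VAT, 190 to 502 in Spl/LN, 1259 to 2114 between tissues without immunization, 1289 to 2378 after Fat1562 and 240 to 576 for the interaction. In Spl/LN, DESeq2 called 793 genes and the fit with no filter 793, and for the interaction DESeq2 called 789. The cause of these moves was not tested. Of the 8 receptors, the number called ran from 4 to 6 for Fat1562 in VAT, 3 to 4 in Spl/LN, 5 to 7 between tissues without immunization, 7 in every fit after Fat1562 and 3 to 5 for the interaction.

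For genes of the 5 lists, in fits chosen after seeing the data, 10 of 22 calls after Fat1562 in VAT, 6 of 13 in Spl/LN and 3 of 10 in the interaction were lost when at least 1 of the 11 libraries was left out, 8, 2 and 3 of them without replicate 2 of unimmunized VAT.

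Deviations of same-numbered libraries from their group means had correlations of -0.04 to 0.06 over 15 pairs. Those of differently numbered libraries were -0.06 to 0.04 over 30 pairs. With so few libraries in a group, these values cannot tell whether libraries of the same number came from the same mouse. With the replicate block, the Tigit difference between tissues without immunization was -0.34 (adjusted p = 0.0514), that of Cd226 was 0.64 (adjusted p = 0.134) and the Tigit interaction was 0.53 (adjusted p = 0.066). With the length of the longest transcript in place of all exons, 28 of 36 levels and ratios per kilobase moved by less than 1 SD between libraries and the order of the 8 genes was the same in all 4 groups, and with plain library totals 27 of 32 levels did so. In VAT after Fat1562, Cd226 had the lowest counts of the 8 genes, with 26 to 44 reads per library.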
